A study of Mus musculus with 9 samples.

Results

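The RAL GTPases RALA and RALB and 3 of the exchange factors that act on them were followed in the mouse macrophage line RAW 264.7, which answers bacterial lipopolysaccharide (LPS). The members were all probe sets whose annotation gives 1 gene symbol among Rgl1, Ralgds, Rgl2, Rala and Ralb. They came to 9 of the 22626 probe sets tested and 5 of 12393 named genes. Total RNA was measured on 9 arrays: 3 of untreated cells, 3 of cells kept with LPS at 100 ng/ml for 18 h, and 3 labelled as cells with constitutive overexpression of CstF-64, a factor of mRNA 3' end formation encoded by Cstf2. No treatment, allele or agent beyond these is given for any group. The sources used here do not give the expression construct, whether the labelled cells are 1 clone, or whether the replicates are separate cultures, and no group carries an empty construct. An effect of CstF-64 and other differences between the cell populations therefore cannot be told apart, and p-values cover the spread between these arrays, which can be technical only.

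RAL proteins are small GTPases of the RAS branch that switch between a GDP-bound resting form and a GTP-bound active form. RALGDS, RGL1 and RGL2 exchange the nucleotide on RAL and bind active RAS through a RAS-association domain, so that they connect RAS to RAL. Active RAL binds the exocyst, which tethers secretory vesicles to the plasma membrane, and in innate immune signalling RALB and an exocyst subunit engage the kinase TBK1.

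The family was chosen by gene symbol with the array intensities of these same comparisons already known, and which of them led to the choice is not given. The intensities and changes of its members are therefore given as a description, without p-values of single members. Calls of members, and counts of members under a p-value, are listed and not read as support. The share of all probe sets under an unadjusted p of 0.05 was not counted. Counts of members or list genes at that threshold therefore have no reference, and nothing is read from them. "Called" means a limma p-value, adjusted by the Benjamini-Hochberg method over 22626 probe sets, under 0.05, and "rose" or "fell" is written only of called probe sets. Log2 changes are differences of log2(intensity + 13) with their standard errors (SE). Intensities of different probe sets are not comparable with each other as transcript amounts. A reading at or below 31.2, the highest value of 27 Bacillus control probe sets, is treated as background.

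After LPS, 3 of the 5 genes were higher: Rgl1 on its 2 probe sets, Ralgds, and Rala on the bright probe set of its 3. Rgl2 and Ralb were not called. Under the label CstF-64, the brighter Rgl1 probe set fell below the untreated level and Ralgds lay lower without being called. The dimmer Rgl1 probe set, Rgl2, Rala and Ralb overlapped the untreated arrays. The order of levels for the brighter Rgl1 probe set and Ralgds was thus LPS, untreated, CstF-64 from high to low. Of these, only the Rgl1 probe set was called for its lower step. The bright Rala probe set was high in the LPS arrays alone.

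The genes that were higher after LPS are shown here with the bases just before transcription starts listed for them. The sequences are from RefSeq on GRCm38.p6 and run 5′ to 3′ on the gene's strand, 250 bases that end at the base before the start. All 5 genes matched the promoter table, with 7 starts, and the first start of a gene is the one farthest upstream there. Some windows reach into the annotated gene span. The Ralgds span begins at base 28513089 of chromosome 2, inside its first window. The Rgl2 span begins at base 33929514 of chromosome 17, before its whole window. The Rgl1 span, on the minus strand, begins at base 152766308 of chromosome 1, within the first bases next to its first start. Capitals mark matches to GGGCGG, the GC box, on either strand and, in the first Rgl1 sequence, a match to the NF-kappaB consensus. The first Rgl1 start (chr1:152766306-152766555, minus strand) and a start farther into the gene (chr1:152625218-152625467, minus strand) are followed by the first Ralgds start (chr2:28512917-28513166, plus strand) and the Rala start (chr13:17944218-17944467, minus strand).
Rgl1, first start: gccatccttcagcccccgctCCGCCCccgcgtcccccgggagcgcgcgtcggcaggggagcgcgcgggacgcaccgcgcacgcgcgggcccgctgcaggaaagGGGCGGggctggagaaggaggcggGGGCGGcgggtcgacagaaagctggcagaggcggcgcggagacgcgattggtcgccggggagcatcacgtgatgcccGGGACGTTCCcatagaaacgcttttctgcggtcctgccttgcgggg
Rgl1, inner start: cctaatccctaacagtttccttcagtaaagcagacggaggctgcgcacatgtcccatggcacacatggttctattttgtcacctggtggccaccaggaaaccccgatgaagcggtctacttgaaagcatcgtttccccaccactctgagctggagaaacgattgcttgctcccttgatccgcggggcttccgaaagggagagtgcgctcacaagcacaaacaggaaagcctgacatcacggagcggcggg
Ralgds, first start: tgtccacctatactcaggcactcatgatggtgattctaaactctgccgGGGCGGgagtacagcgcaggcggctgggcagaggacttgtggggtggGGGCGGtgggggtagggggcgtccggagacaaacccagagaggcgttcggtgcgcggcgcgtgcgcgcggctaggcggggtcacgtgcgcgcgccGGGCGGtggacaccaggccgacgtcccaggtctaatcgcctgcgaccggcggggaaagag
Rala: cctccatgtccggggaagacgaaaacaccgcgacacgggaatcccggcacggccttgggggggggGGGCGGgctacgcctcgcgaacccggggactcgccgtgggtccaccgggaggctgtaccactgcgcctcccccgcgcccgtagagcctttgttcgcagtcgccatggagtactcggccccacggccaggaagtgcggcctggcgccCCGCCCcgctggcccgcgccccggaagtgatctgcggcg

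The first Rgl1, first Ralgds and Rala sequences are rich in G and C, at 74.4%, 69.2% and 73.6%, with 37, 29 and 32 CpG dinucleotides. The median of the 32841 promoter windows of the same length was 52.4% with 6 CpG dinucleotides. The Ralb window had 64% and 18, and that of Rgl2 62.8% and 14. The inner Rgl1 start had 55.2% and 13, and the second Ralgds start 59.6% and 10. GGGCGG was present on either strand in 6 of the 7 windows and in 32.7% of all windows, the exception being the inner Rgl1 start. All windows were taken without matching to the 7 in G and C content, so these shares are not compared. The NF-kappaB consensus was matched in 1 of the 7 windows, by GGGACGTTCC between 46 and 37 bases before the first Rgl1 start, and in 7.25% of all windows. The interferon-response element, TGANTCA (AP-1), TGACGTCA (CRE) and TATAAA had no match in the 7 windows and were found in 2.98%, 6.75%, 1.55% and 12.4% of all windows. The 6 motifs were searched on both strands. A match or its absence describes the letters of these windows and no binding.

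Across the series, array medians lay between 42.75 and 54.2, and each array correlated with its own group at a mean r of 0.966 to 0.985 across probe sets. LPS array 1 (0.966) and CstF-64 array 1 (0.975) had the lowest of these values in their groups. RNA integrity, read as 3' over 5' control signal, gave ratios of 1.03 to 1.22 with actin probe sets and 0.79 to 0.88 with those of Gapdh. Of 8 macrophage markers 7 were above background in every array, Mertk in none, while the lymphocyte and granulocyte or mast cell lists had no marker above background in all arrays. In the fibroblast and endothelial list 2 of 8 were. Markers that moved with LPS, beside the family's changes, were the macrophage genes Itgam (168.0 ± 38.5 to 486.1 ± 39.0), Fcgr1 (107.9 ± 25.5 to 483.5 ± 159) and Adgre1 (510.6 ± 95.9 to 1687 ± 471), which rose, and Csf1r (3140 ± 391 to 1919 ± 73.1), which fell (limma adjusted p = 0.000274, 0.000322, 0.000559 and 0.00466). The fibroblast gene Dcn rose from a background reading of 7.27 ± 5.36 to 47.5 ± 13.7 (limma adjusted p = 0.00108), and of 5 osteoclast genes Mmp9 (44.4 ± 2.42 to 296.6 ± 143) and Acp5 (82.1 ± 24.4 to 267.5 ± 22.8) rose (limma adjusted p = 0.000903 and 0.00741). None of the lymphocyte or granulocyte and mast cell markers was called by limma, nor under an unadjusted p of 0.05. The part of these differences in the members' changes was not tested. All 6 genes of an LPS response check (Tnf, Il1b, Nos2, Ptgs2, Ccl5 and Irf7) rose after LPS. The targeted gene did not bear out its label: the brighter Cstf2 probe set read 397.8, 363.1 and 372.2 in untreated cells and 317.9, 361.5 and 394.5 in the arrays labelled CstF-64. The dimmer one read 114.7, 100.2 and 134.1 against 97.1, 85.4 and 80.4. Whether these probe sets lie inside the expressed sequence is not known, so every direction given for those arrays refers to arrays by their label.

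Rgl1, which encodes RGL1, an exchange factor related to RALGDS, had the widest range of the family. The gene lies on chromosome 1 and spans 249.5 kb. Its brighter probe set, 1449124_at, read 135.7, 131.9 and 130.3 in untreated arrays 1, 2 and 3. After LPS it read 802.4, 613.6 and 824.6, and in the arrays labelled CstF-64 39.7, 49.5 and 62.3. The groups did not overlap in any pairing, and the arrays labelled CstF-64 all stayed above the background limit. The means were 132.6 ± 2.77 (SD, n = 3), 746.9 ± 116 and 50.5 ± 11.3. The log2 change after LPS was 2.37 (SE 0.16), which ranked 134 by size among the 1341 probe sets called higher. For the arrays labelled CstF-64 it was -1.21 (SE 0.16), rank 26 among the 33 probe sets called lower.

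The call for LPS held in all 17 alternatives, with log2 changes from 2.11 to 2.53. That for the arrays labelled CstF-64 held in 13 of 17, with changes from -1.36 to -0.87. It passed only narrowly with the replicate number as a block and with only the compared groups. It was lost without untreated array 1 (log2 -1.20), untreated array 2 (-1.22), untreated array 3 (-1.22) or CstF-64 array 2 (-1.21), that is, with nearly the same size and fewer arrays. Without CstF-64 array 1, which stood apart from its group, it was -1.09 and called, and without LPS array 1 the LPS change was 2.31 and called.

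The dimmer Rgl1 probe set, 1418535_at, annotated to the same RefSeq transcript, moved less. It read 77.0, 125.5 and 98.8 in untreated cells, 172.9, 204.6 and 247.4 after LPS, and 68.3, 99.4 and 84.9 in the arrays labelled CstF-64. All LPS arrays were above all others, whereas the untreated arrays and those labelled CstF-64 overlapped. The log2 change was 0.97 (SE 0.20) after LPS, which was called, and -0.21 (SE 0.20) in the arrays labelled CstF-64, which was not.

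**Figure D1:**
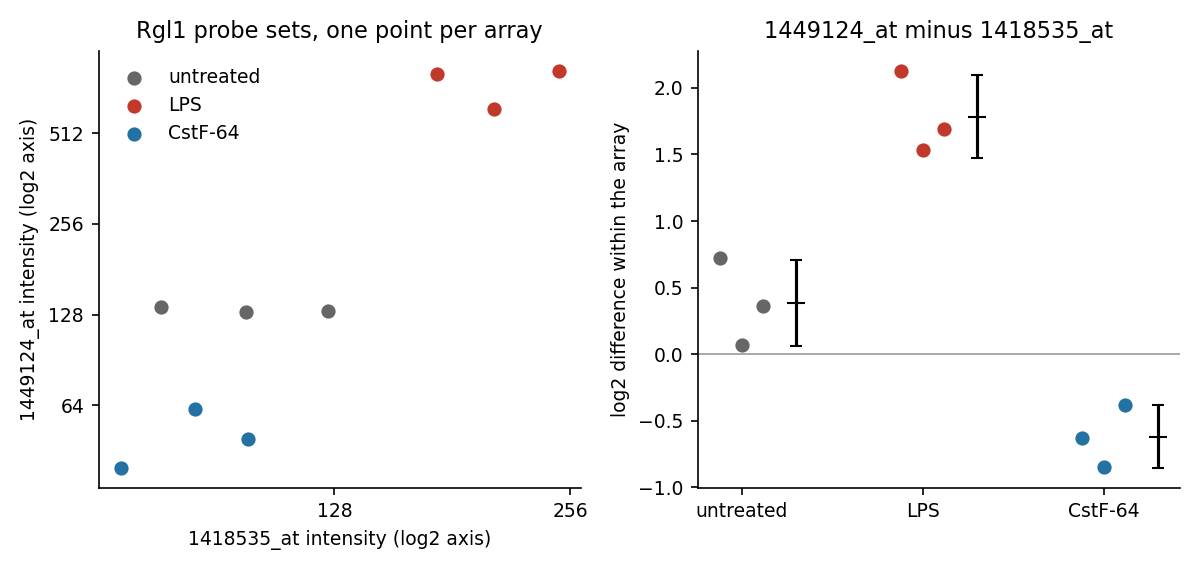
Left, intensity of the Rgl1 probe sets 1449124_at (vertical) and 1418535_at (horizontal) on log2 axes, 1 point per array and 1 colour per group (CstF-64 is a label). Right, the difference of their log2(intensity + 13) values within each array, with the mean and SD of 3 arrays; the LPS arrays lie from 1.53 to 2.13, the untreated arrays from 0.07 to 0.72 and those labelled CstF-64 from -0.85 to -0.38.

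The probe sets of Rgl1 therefore did not change in step. Within each array, 1449124_at minus 1418535_at on the log2 scale was 0.72, 0.07 and 0.36 in untreated cells, 2.13, 1.53 and 1.69 after LPS, and -0.63, -0.85 and -0.38 in the arrays labelled CstF-64. The group means were 0.38 ± 0.33 (SD, n = 3), 1.78 ± 0.31 and -0.62 ± 0.23, with no overlap between groups, as the plot of the Rgl1 probe sets shows. The difference was taken within arrays, so that a factor common to an array does not enter it, apart from the added 13. The sources used here do not say where in the transcript each probe set lies.

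Ralgds encodes the founding RAL exchange factor, lies on chromosome 2 and has 1 probe set, 1460634_at. It read 124.7, 120.5 and 111.2 in untreated cells, 245.7, 306.8 and 354.4 after LPS, and 80.2, 72.8 and 68.2 in the arrays labelled CstF-64. The 3 groups did not overlap. Its log2 change after LPS was 1.24 (SE 0.15) and was called, also in all 17 alternatives (1.05 to 1.40). Without LPS array 1 it was 1.38. In the arrays labelled CstF-64 it was -0.60 (SE 0.15), which was not called in the fit or in any of 17 alternatives (-0.67 to -0.45), although all 3 arrays lay below all untreated arrays.

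Rgl2 encodes the third exchange factor of the family measured here, lies on chromosome 17 and also has 1 probe set, 1450688_at. It read 352.7, 336.4 and 280.8 in untreated cells, 262.4, 288.4 and 272.1 after LPS, and 427.9, 326.0 and 291.5 in the arrays labelled CstF-64. Each group overlapped the untreated arrays. The log2 changes were -0.22 (SE 0.15) after LPS and 0.09 (SE 0.15) in the arrays labelled CstF-64, and neither was called under any setting tried.

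Rala, on chromosome 13, encodes the GTPase RALA and has 3 probe sets, of which only 1423137_at was bright. It read 341.8, 369.1 and 445.0 in untreated cells and 796.2, 1042.8 and 1052.8 after LPS, with no overlap. In the arrays labelled CstF-64 it read 329.0, 385.4 and 420.6, inside the untreated range except for the lowest array. The log2 change after LPS was 1.29 (SE 0.15), called in all 17 alternatives (1.21 to 1.45), and 1.42 without LPS array 1. In the arrays labelled CstF-64 it was -0.02 (SE 0.15).

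The other Rala probe sets gave little signal. The probe set 1450870_at, annotated to the same accession as the bright one, read 21.3, 17.7 and 35.3 in untreated cells, 15.5, 20.5 and 18.0 after LPS, and 24.4, 34.5 and 51.6 in the arrays labelled CstF-64. Only 3 of these 9 readings exceeded the background limit, none of them after LPS, so no change can be read from it. The probe set 1456049_at read between 2.1 and 4.5 in all 9 arrays, below background, and was the 1 member of 9 removed by a filter that asked for 3 arrays above it.

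Ralb, on chromosome 1, encodes the GTPase RALB. Its probe set 1435517_x_at, of a class that can also bind other transcripts, read 313.2, 300.7 and 362.0 in untreated cells, 261.0, 248.2 and 245.9 after LPS, and 234.5, 447.7 and 398.4 in the arrays labelled CstF-64. The LPS arrays all lay below the untreated ones, with a log2 change of -0.35 (SE 0.21) that was not called. The probe set 1417744_a_at read 302.3, 313.5 and 295.0, then 323.7, 298.5 and 273.1, then 239.8, 372.6 and 392.8 in the same order of groups, and all groups overlapped. Its log2 changes were -0.03 (SE 0.17) after LPS and 0.11 (SE 0.17) in the arrays labelled CstF-64. On each Ralb probe set CstF-64 array 1 was the lowest of the 9 arrays and the other arrays of that label were the highest, and without it the CstF-64 changes were 0.37 and 0.32, not called.

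**Figure D2:**
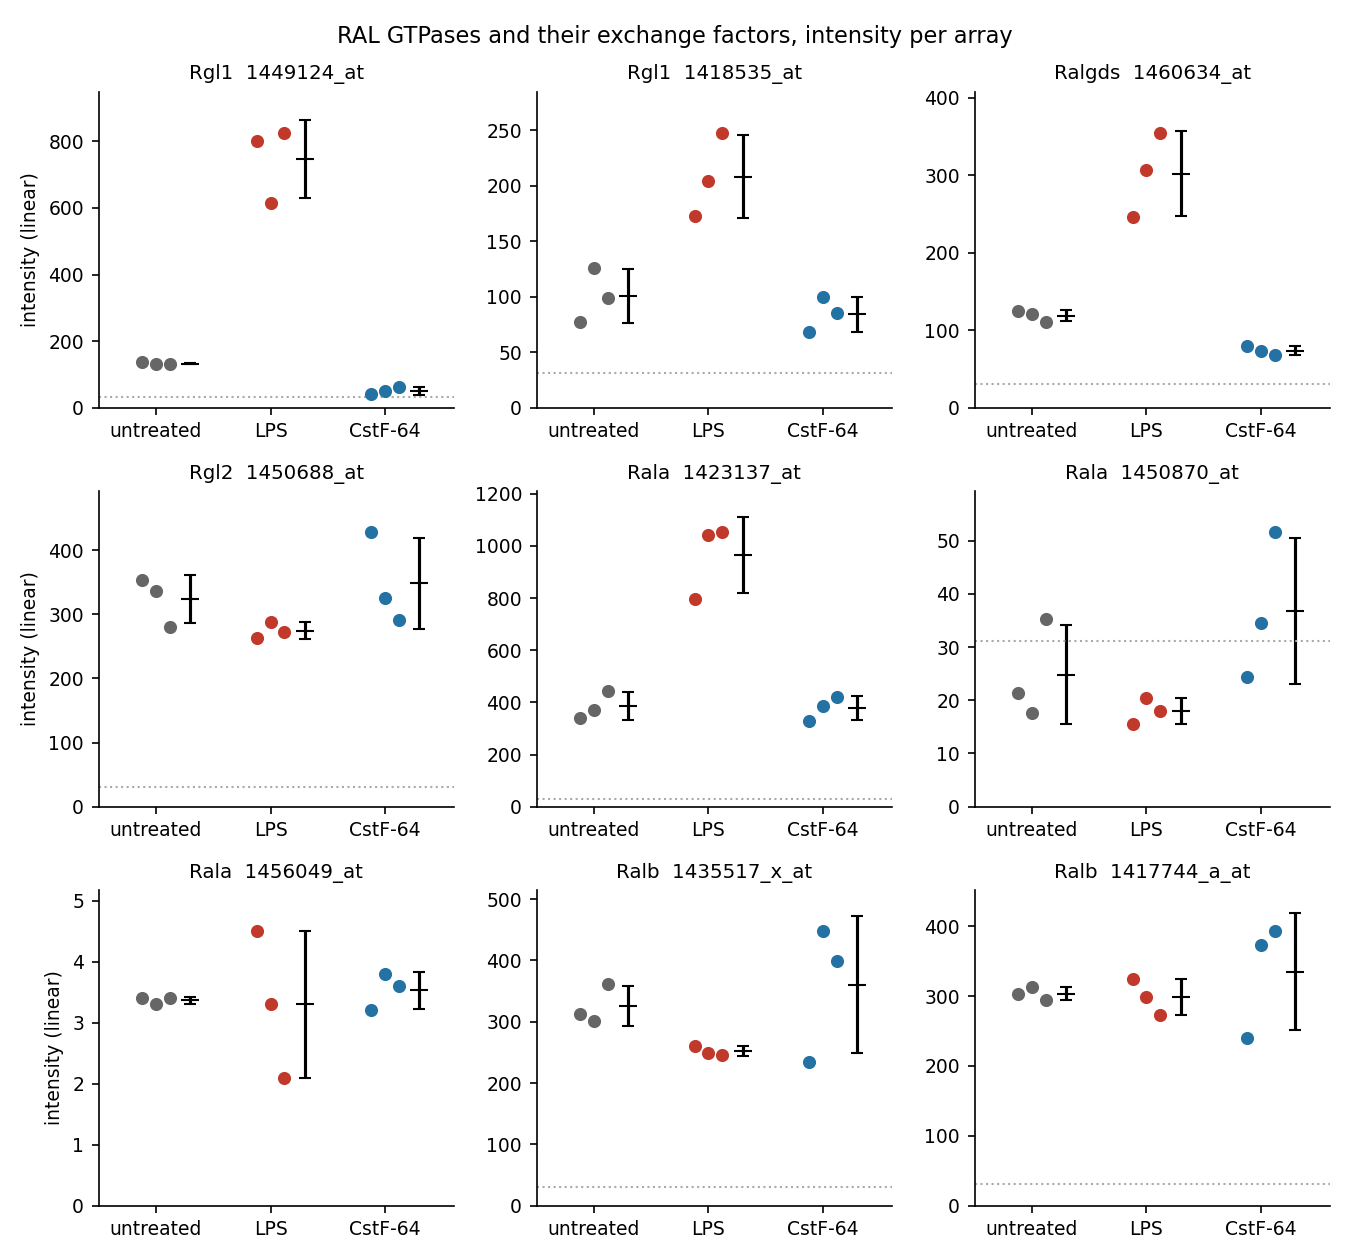
Intensity on a linear axis for each of the 9 probe sets, 1 point per array, grouped as untreated, LPS and CstF-64 (a label), with the mean and SD of 3 arrays beside the points; the dotted line is the background limit of 31.2 (above the axis range for Rala 1456049_at). Rgl1 1449124_at rises from 130.3 to 135.7 in untreated cells to at least 613.6 after LPS, while Rgl2 and Ralb stay between 234.5 and 447.7.

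After LPS, 4 of the 9 member probe sets were called higher and none lower, beside 5.93% and 10.7% of all probe sets, or 16.6% either way. The groups did not overlap for 4 that were higher and 1 that was lower, where 12.2% and 21.2% of all probe sets (33.4% either way) did so. In unadjusted limma p-values 4 members were under 0.05, all higher. Because the members were chosen with this comparison known, nothing is read from these shares and counts. The median log2 change was -0.01 over the 9 members and -0.04 over all probe sets. Centring each array on its median moved the latter to 0.12 and turned the split of all calls from 1341 higher and 2414 lower to 2228 higher and 1455 lower. Under that centring the changes of Rgl1 1449124_at and 1418535_at, Ralgds and Rala were 2.53, 1.13, 1.40 and 1.45, all called.

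Of the 9 member probe sets, in the arrays labelled CstF-64, 1 probe set was called lower and none higher, beside 0.146% and 0.102% of all probe sets, or 0.248% either way. Groups did not overlap for 2 members that were lower and none that were higher, against 6.18% and 6.67% of all probe sets (12.9% either way). In unadjusted limma p-values 2 members were under 0.05, both lower, and nothing is read from these counts either. Only 56 probe sets were called in all, a number that ran from 18 without untreated array 2 to 110 without CstF-64 array 1. Of the marker lists, the summed intensity of 5 osteoclast genes was 1400.7 to 3005.1 in these arrays, 639.8 to 1638.0 in untreated cells and 944.0 to 2176.4 after LPS, mostly from Ctsk. None of them was called. Mmp9, the list's 1 gene under an unadjusted limma p of 0.05, read 94.6 ± 30.6 in these arrays and 44.4 ± 2.42 in untreated cells (log2 0.86, limma adjusted p = 0.630), Acp5 read 50.2 ± 33.3 and 82.1 ± 24.4, and Calcr was below background throughout. Of the macrophage markers none was called by limma and 2 were lower at an unadjusted p under 0.05, Adgre1 (221.0 ± 10.7, log2 -1.15, limma adjusted p = 0.0777) and Itgam (114.9 ± 5.58, log2 -0.48, limma adjusted p = 0.576). The part of such differences in the Rgl1 result was not tested.

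**Figure D3:**
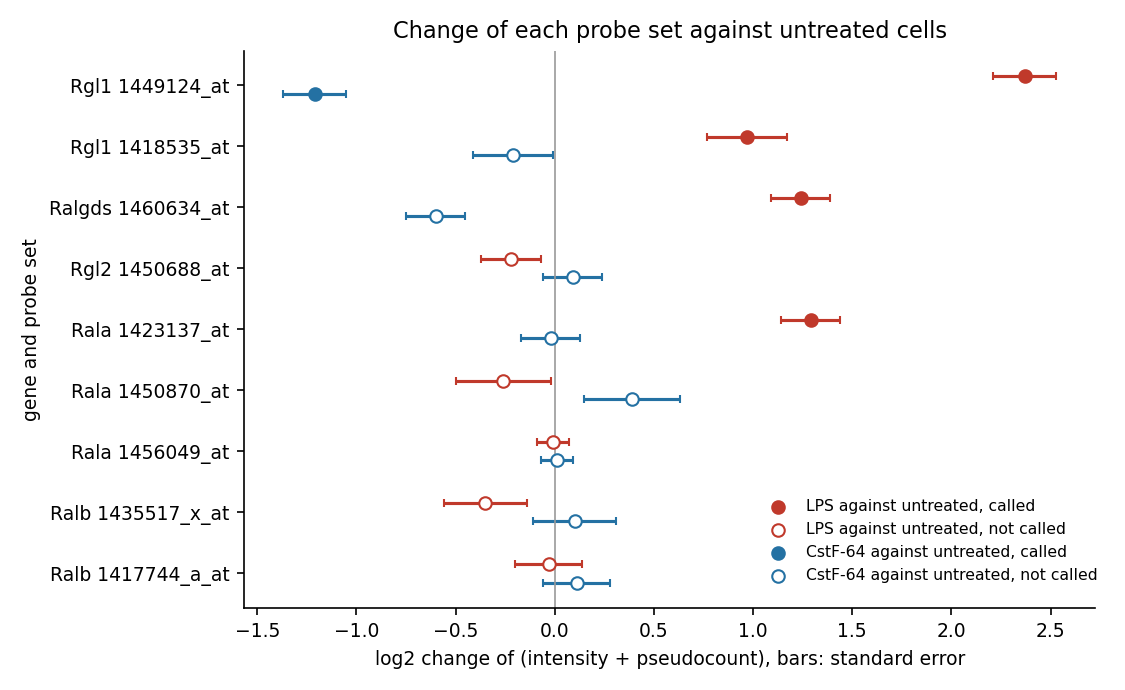
Log2 change of each of the 9 probe sets after LPS and in the arrays labelled CstF-64, each against the same 3 untreated arrays, with standard errors; filled points passed the adjusted p of 0.05. Rgl1 1449124_at is the only probe set of the family filled in each colour, at 2.37 and -1.21.

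The comparisons with untreated cells share the 3 untreated arrays, so the values are set side by side without a test of their relation. Rgl1 1449124_at had 2.37 after LPS and -1.21 in the arrays labelled CstF-64, Rgl1 1418535_at 0.97 and -0.21, Ralgds 1.24 and -0.60, and Rala 1423137_at 1.29 and -0.02. Set against the LPS arrays directly, without use of the untreated ones in the difference, the arrays labelled CstF-64 were lower by 3.58 for Rgl1 1449124_at (log2 -3.58, SE 0.16). For Ralgds the difference was -1.85 (SE 0.15), for Rala 1423137_at -1.32 (SE 0.15) and for Rgl1 1418535_at -1.19 (SE 0.20). These 4 of 9 were called lower and none higher, beside 5.79% and 9.43% of all probe sets (15.2% either way). Under an unadjusted limma p of 0.05 were 5 members, 4 lower and 1 higher, and again nothing is read from these counts. Each of the 4 was called in all 17 alternatives. Groups did not overlap for 4 lower members and 2 higher ones (Rgl2 and Rala 1450870_at), where 11.4% and 19.4% of all probe sets (30.8% either way) did so. Ralb 1435517_x_at and Rala 1450870_at were called higher in this comparison only when CstF-64 array 1 was left out, at 0.72 and 0.84. The LPS arrays of Rala 1450870_at read 15.5 to 20.5, below background, so no change is read from that probe set.

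Other genes that set the RAL cycle had few named probe sets. Of 7 genes listed, the exchange factors Rgl3 and Ralgps2 and Ralgapa1, a subunit of the RAL GTPase-activating complex, were measured. None was called by limma in any comparison, nor under an unadjusted p of 0.05. Ralgps2 read 49.8 ± 2.14 in untreated cells, 36.5 ± 3.44 after LPS and 35.6 ± 13.4 in the arrays labelled CstF-64 (limma adjusted p = 0.301 and 0.836). Rgl3, a further gene of the RGL group, read 54.9 ± 20.2, 61.2 ± 11.2 and 61.4 ± 9.54 in the same order (limma adjusted p = 0.730 and 1). Ralgapa1 read 163.2 ± 7.19, 181.1 ± 50.2 and 135.4 ± 5.55, with limma adjusted p = 0.759 and 0.944.

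Among 10 of 16 RAL effector and exocyst genes that were measured, 2 rose after LPS and none fell. They were Tbk1, the innate immune kinase (217.9 ± 18.6 to 380.6 ± 40.8, log2 0.77, limma adjusted p = 0.00302), and Pld1, a phospholipase that binds RAL (79.1 ± 7.02 to 141.6 ± 15, log2 0.75, limma adjusted p = 0.00534). The median change of the list was -0.02, beside -0.04 over all probe sets, and 5.93% of all probe sets were called higher. No exocyst subunit was called by limma after LPS, and Exoc4 and Exoc8, named after their values were seen, were the 2 lower at an unadjusted p under 0.05. None of the 10 in the arrays labelled CstF-64 was called by limma and 1, Exoc4, was under an unadjusted p of 0.05 (444.8 ± 14.6 to 582.2 ± 28.3, log2 0.38, limma adjusted p = 0.364). Flna, an actin crosslinker that binds RALA, read 563.8 ± 34.3 in untreated cells and 436.3 ± 95.9 in those arrays (limma adjusted p = 0.775).

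Of 20 related RAS family GTPases 17 were measured, and 2 rose after LPS, the RAP proteins Rap1b (1035 ± 102 to 2200 ± 267, log2 1.08, limma adjusted p = 0.000332) and Rap2c (121.9 ± 3.34 to 179.5 ± 2.05, log2 0.51, limma adjusted p = 0.0105). None fell, although without CstF-64 array 1 the fit called 1 lower. Rap1b read 1030 ± 35.6 in the arrays labelled CstF-64, a log2 change of 0.00 from untreated cells. The list had a median change of 0.14, beside -0.04 over all probe sets, of which 5.93% were called higher and 10.7% lower. The next genes by p, named after their values were seen, were Rit1 (106.2 ± 19.8 to 154.0 ± 6.12, limma adjusted p = 0.0502) and Rras (224.5 ± 77.6 to 480.9 ± 8.22, limma adjusted p = 0.0525), and 4 genes of the list were called higher with median centring, either other pseudocount, the filter on dim probe sets or the replicate number as a block. None of the 17 was called by limma in the arrays labelled CstF-64. Rasd2 alone was under an unadjusted p of 0.05, at 38.9 ± 16.0 in untreated cells and 91.2 ± 43.3 in those arrays (limma adjusted p = 0.633), and the next gene by p, Rerg, was below background.

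Of 27 exchange factors and GTPase-activating proteins of RAS and RAP, 21 were measured. After LPS 1 rose, Rasal2 (165.8 ± 7.25 to 302.6 ± 39.3, log2 0.81, limma adjusted p = 0.0134), and 1 fell, Rasa3 (377.7 ± 58.3 to 230.5 ± 57.5, log2 -0.70, limma adjusted p = 0.0331), which, like Rasal2, belongs to the GTPase-activating proteins. The fall of Rasa3 was no longer called without any one of untreated arrays 1 and 2, LPS arrays 1 and 2 and CstF-64 array 3, where 0 genes of the list fell. The median change was -0.07, beside -0.04 over all probe sets, with 5.93% called higher and 10.7% lower. In the arrays labelled CstF-64 none was called by limma, and Sos2, a RAS exchange factor, was the 1 gene under an unadjusted p of 0.05 (136.0 ± 5.60 to 85.7 ± 28.8, limma adjusted p = 0.538). Rasgrp1, next by p, read 17.9 ± 4.69 and 25.7 ± 3.72 (limma adjusted p = 0.944), with each mean below the background limit.

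Of 19 RAS effectors other than the RAL exchange factors 14 were measured, and after LPS 4 fell and none rose. Under an unadjusted limma p of 0.05, 1 was higher and 6 lower. The share of all probe sets under that p was not counted. Rin2, a RAB5 exchange factor with a RAS-association domain, fell from 142.1 ± 20.1 to 55.0 ± 17.9 (log2 -1.22, limma adjusted p = 0.00935). The PI3-kinase catalytic subunits Pik3cg (395.8 ± 3.36 to 265.1 ± 42.2, log2 -0.57, limma adjusted p = 0.0145) and Pik3cd (140.3 ± 10.1 to 82.2 ± 10.2, log2 -0.69, limma adjusted p = 0.0211) also fell. The fourth, Rin1, was below background in every array. The median change was -0.30, beside -0.04 over all probe sets, of which 10.7% were called lower. After median centring 1 gene of the list fell and 1 rose. For the arrays labelled CstF-64 none was called by limma and 2, Pik3cd (99.9 ± 23.1, limma adjusted p = 0.637) and Rin1, were lower at an unadjusted p under 0.05.

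**Figure D4:**
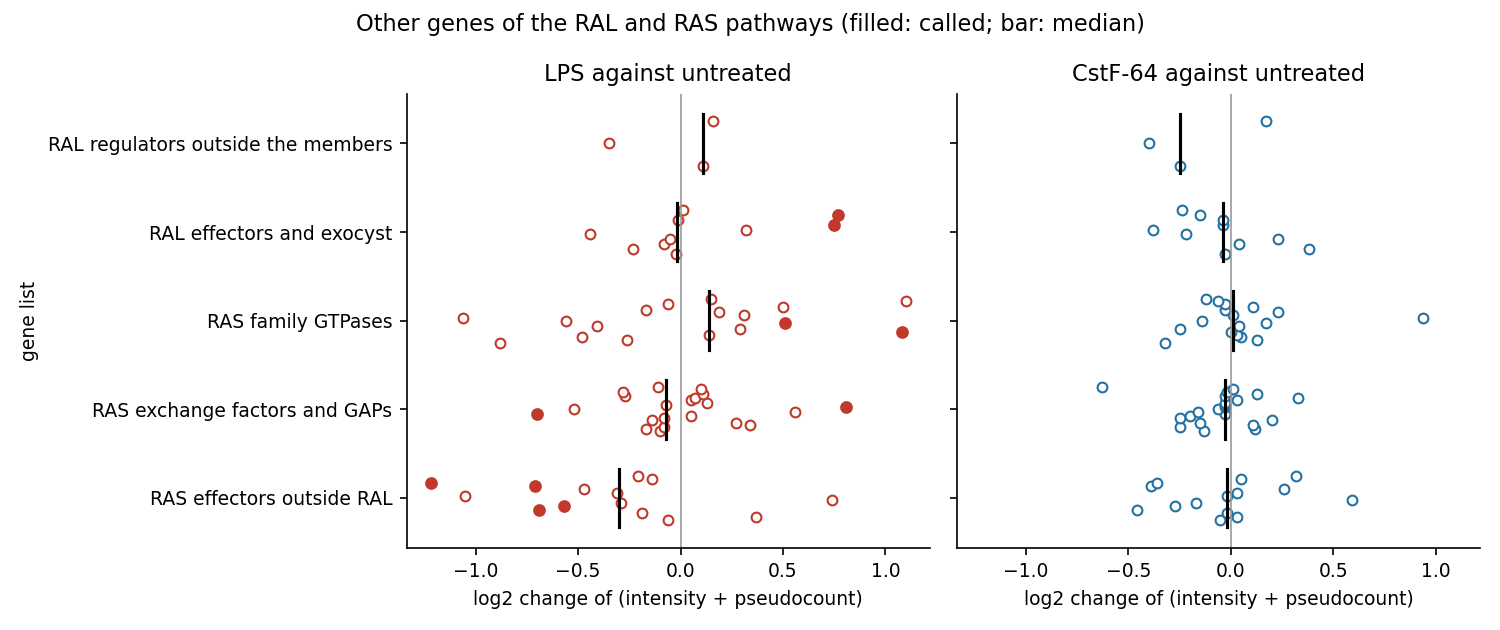
Log2 change of each measured gene of 5 lists of RAL and RAS pathway genes, after LPS (left) and in the arrays labelled CstF-64 (right), brightest probe set per gene; filled points passed an adjusted p of 0.05 and the bar is the list's median. After LPS the RAS effectors outside RAL have the lowest median, -0.30, and in the right panel no point is filled.

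The genes compared were 8001 others whose mean intensity over the 9 arrays exceeded the background limit, so single readings could lie below it. Those whose profile over the arrays was most like a member's were ranked by Pearson r on the log2 scale. The arrays fall into 3 groups, so that r mixes differences between groups with the spread within them, and it is given as a description. For Rgl1 1449124_at they were Mapk6 (r = 0.983), Tbrg1 (0.978) and Gnb1 (0.977). Mapk6, an atypical MAP kinase, read 499.2 ± 25.2 in untreated cells, 820.0 ± 41.7 after LPS and 374.0 ± 23.5 in the arrays labelled CstF-64. For Ralgds they were Flot2 (0.990), Adgre1 (0.986) and Casp1 (0.985). Adgre1, which encodes the macrophage surface protein F4/80, read 510.6 ± 95.9, 1687 ± 471 and 221.0 ± 10.7 in the same order of groups, and Casp1, the inflammatory caspase, 214.9 ± 28.1, 580.5 ± 147 and 137.1 ± 12.1. These genes share with Rgl1 1449124_at and Ralgds the order LPS, untreated, CstF-64, which the ranking by r selects for.

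For Rala the most alike were Cd274 (0.988), Sri (0.986) and Tnfaip8 (0.984). Cd274, the checkpoint ligand PD-L1, read 65.3 ± 18.5, 802.7 ± 197 and 77.2 ± 18.0. Sri, a calcium-binding protein, read 491.8 ± 28.3, 919.1 ± 93.3 and 472.2 ± 52.3. Each was high after LPS alone, which the ranking again selects for. For Rgl2 the nearest were Timm22 (0.964), Nup88 (0.960) and Rfng (0.955), and for Ralb Slc25a36 (0.953), Pnrc1 (0.952) and Oxld1 (0.949). Their values were spread most in the arrays labelled CstF-64, as for Oxld1 (103.6 ± 21.9, 61.4 ± 6.31 and 185.3 ± 101).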

How the data were processed

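The deposited values are linear-scale intensities per array, and the sources used here do not give how they were computed or normalized. They carried a common scaling: 2% trimmed means ran from 150.05 to 150.06 over the arrays, so the deposited scaling was kept. Depth is unknown for arrays, and their number, 3 per group, limits the precision. Of 22690 probe sets 64 were controls. The other 22626 were named from a platform annotation and current symbols of GRCm38.p6: 20380 had 1 gene, 691 several and 1555 none. Intensities were taken as log2(intensity + 13), where 13 is 0.25 of the overall median of 50.2, rounded, and changes of dim probe sets are understated on this scale. The model, with 1 mean per group over the 9 arrays, used limma 3.58.1 (lmFit, then eBayes with trend) in R 4.3.3. Data were also simulated with independent normal noise and 200 of 22626 probe sets changed. For the LPS, CstF-64 and CstF-64 against LPS comparisons, 62%, 62% and 70% of changes of 1 log2 unit were called. Of changes of 0.5 log2 units, 12%, 12% and 8% were called. The adjusted p depends on the share of probe sets changed, and 16.6%, 0.248% and 15.2% were called in the data. These percentages therefore do not give the recovery in the data.

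The members and gene lists were chosen with earlier results of these data known. The named genes are all member probe sets, up to 4 genes per pathway list and comparison by adjusted p (2 where fewer than 4 passed), the 3 genes most like each member, and Cstf2. Marker genes, the LPS response check, Rit1, Rras and Exoc8 are named beyond this rule. A gene was represented by its brightest probe set. The 17 alternatives were quantile normalization, median centring, pseudocounts of 3 and 50, a filter on dim probe sets, no intensity trend, only the compared groups, the replicate number as a block, and each of 9 arrays left out.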

Additional observations from a re-analysis of the deposited data

How the results depend on the processing

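The member calls after LPS, and those against the LPS arrays, kept their direction and stayed called in all 17 alternatives. The call of Rgl1 1449124_at in the arrays labelled CstF-64 did so in 13, as given above. The alternatives refit the same arrays, and the members were chosen with these comparisons known. Repeated calls of members are therefore a description and not read as support. No called member value changed sign. Median centring gave 2228 higher and 1455 lower probe sets for LPS against untreated cells, and 1249 and 2097 for CstF-64 against LPS. For LPS, the RAS family list had 4 genes higher with median centring, pseudocounts of 3 and 50, the dim filter and the replicate block, and 1 lower with the pseudocount of 3, the dim filter and only the compared groups. The list of RAS exchange factors and GTPase-activating proteins had 2 higher with quantile normalization, 3 with median centring, and 0 lower with median centring and with only the compared groups. RAS effectors had 1 higher and 1 lower after median centring. No other count of a pathway list against untreated cells moved by over 1.5 times with these settings, and no list gene was called in the arrays labelled CstF-64 under any setting.

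Leaving out 1 array at a time gave 2399 to 4118 calls for LPS (1475 to 2653 lower), 18 to 110 for CstF-64 (8 to 53 higher, 10 to 57 lower) and 2093 to 3299 for CstF-64 against LPS (1239 to 2067 higher, 854 to 1255 lower). After LPS, 0 to 1 genes fell in the RAS family list and 0 to 1 in the list of exchange factors and GTPase-activating proteins. With an arm of 2 arrays the spread is that of all groups pooled.

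The replicate numbers of the labels were also used as a block. Deviations of same-numbered arrays from their group means correlated between -0.063 and 0.158, and those of differently numbered arrays between -0.236 and 0.196. With 3 arrays per group these values cannot tell whether same-numbered arrays were handled together. With the block 32 probe sets were called for CstF-64, 13 higher and 19 lower. Members kept their calls. Dim signal limits Rala 1450870_at, 1456049_at, Rin1, Rerg and Rasgrp1, at or near background.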
